A study of Mus musculus with 8 samples.

Results

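Ribosome biogenesis, the nucleolar pathway that transcribes ribosomal RNA and builds it into subunits, was described here in sorted epithelial cells of the mouse small intestine through 57 listed genes. The list holds RNA polymerase I genes, nucleolar proteins, proteins of the small nucleolar ribonucleoprotein particles (snoRNPs) and assembly factors of the small and large ribosomal subunits. Members were found by their symbols, which were matched by Ensembl identifier: 56 of the 57 had a row among the 23318 genes of the deposited tables, and Noc2l is not analysed here. All 56 passed the filter on low values (10 or more in 4 or more of the 8 libraries), which kept 12906 genes.

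The fractions were separated by flow cytometry on CD24, a surface glycoprotein, after removal of cells carrying CD45, the leukocyte antigen, and of cells bound by Ulex lectin. The CD24Neg fraction had 4 libraries, with title numbers 2, 4, 6 and 8. The CD24Mid fraction, which the series text also calls CD24low, had 4 libraries, with title numbers 1, 3, 5 and 7. The series text describes the 4 libraries of a fraction as biological replicates; the strain, sex, age and treatment of the mice and any pooling of animals are not given in these sources, and no allele or agent is named for either fraction. Values in each library are given in this order of title numbers. They are the authors' normalised expression values per gene. The even steps among their low values, described below, give no sign of a correction for gene length, but the scaling method is not stated.

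Ribosome production starts when RNA polymerase I transcribes the ribosomal RNA precursor in the nucleolus. Box C/D snoRNPs methylate this precursor and box H/ACA snoRNPs convert uridines in it to pseudouridine, while many assembly factors fold, cut and package it into the small and large subunit. The pathway takes up much of the synthetic capacity of a growing cell. In the intestinal epithelium, dividing cells lie in the crypts and mature absorptive cells on the villi.

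The promoters of 5 members are shown because they span the range of the results below and the letter motifs that were searched; they were chosen after the values were seen. Each is the RefSeq window on GRCm38.p6 from 250 bases before to 50 bases after the annotated start, read 5′ to 3′ on the strand of the gene. Capitals mark the E-box CACGTG, the ETS motif CCGGAAG or its reverse complement CTTCCGG, and the CCAAT box. Gar1, the most changed member, has its window at chr3:129831347-129831646 on the minus strand, Nolc1 at chr19:46075597-46075896 on the plus strand and Nop2 at chr6:125131633-125131932 on the plus strand. Utp20, the most changed small subunit factor, has its window at chr10:88826765-88827064 and Rrp1, the least changed member, at chr10:78412994-78413293, both on the minus strand.
Gar1: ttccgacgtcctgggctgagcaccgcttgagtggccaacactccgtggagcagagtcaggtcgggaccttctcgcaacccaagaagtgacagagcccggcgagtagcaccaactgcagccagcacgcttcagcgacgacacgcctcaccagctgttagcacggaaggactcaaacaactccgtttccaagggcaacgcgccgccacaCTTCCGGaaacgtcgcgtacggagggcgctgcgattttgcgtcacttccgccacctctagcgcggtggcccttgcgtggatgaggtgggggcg
Nolc1: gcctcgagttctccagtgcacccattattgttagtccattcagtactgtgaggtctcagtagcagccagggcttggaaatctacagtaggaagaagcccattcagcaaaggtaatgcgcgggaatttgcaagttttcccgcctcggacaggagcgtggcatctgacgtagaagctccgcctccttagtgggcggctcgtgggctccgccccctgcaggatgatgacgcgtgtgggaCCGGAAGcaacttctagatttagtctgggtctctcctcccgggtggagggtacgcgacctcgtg
Nop2: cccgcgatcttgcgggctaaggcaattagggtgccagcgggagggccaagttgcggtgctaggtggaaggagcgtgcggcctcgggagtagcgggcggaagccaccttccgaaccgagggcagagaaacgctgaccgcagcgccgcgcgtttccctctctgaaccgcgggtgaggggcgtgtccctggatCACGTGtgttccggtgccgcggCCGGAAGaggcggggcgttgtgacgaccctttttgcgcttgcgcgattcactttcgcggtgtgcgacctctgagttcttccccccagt
Utp20: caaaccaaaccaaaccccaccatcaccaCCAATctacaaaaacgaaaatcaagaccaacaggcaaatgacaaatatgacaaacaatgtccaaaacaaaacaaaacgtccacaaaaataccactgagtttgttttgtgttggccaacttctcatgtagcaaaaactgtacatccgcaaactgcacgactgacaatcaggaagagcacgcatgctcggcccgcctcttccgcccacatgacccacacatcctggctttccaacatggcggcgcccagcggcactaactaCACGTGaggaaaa
Rrp1: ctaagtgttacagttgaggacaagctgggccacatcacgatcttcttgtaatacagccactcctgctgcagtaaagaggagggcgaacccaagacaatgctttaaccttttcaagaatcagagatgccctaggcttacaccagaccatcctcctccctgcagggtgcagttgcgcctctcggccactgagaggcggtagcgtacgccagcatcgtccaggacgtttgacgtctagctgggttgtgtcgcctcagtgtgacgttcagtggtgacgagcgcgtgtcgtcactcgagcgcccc

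The Gar1 window holds an ETS match on the reverse strand whose first letter lies at -43, counting the annotated start as 0. The Nolc1 window holds an ETS match at -14. The Nop2 window holds an E-box at -60 and an ETS match at -38, which do not overlap. In the Utp20 window the E-box lies at 37, after the start, and a CCAAT box at -222. The Rrp1 window holds none of these letters.

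Among the 48 members with a window, searched on both strands, 16 (33.3%) held the ETS motif. The share was 20.4% of the 9675 tested genes with a window and 9.93% of all 27025 genes with one. The E-box was in 6 members (12.5%), against 11.8% of tested genes and 8.09% of all genes. These 6 were Nop2, Utp20, Pes1, Mybbp1a, Utp18 and Wdr43. The CCAAT box was in 18 members (37.5%), against 43.1% of tested genes and 41.1% of all genes. Such matches describe the letters of the window and do not show binding. The number of windows differs between genes, and among the members Wdr12, Ubtf and Rrp1b have additional ones.

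All 56 members were lower in CD24Neg than in CD24Mid at an adjusted p under 0.05, and none was higher. Over all tested genes the same call was made for 34.3% in the lower and for 34% in the higher direction, 68.3% in all (limma with Benjamini-Hochberg adjustment over the 12906 genes). The 56 members had a median log2 fold change of -1.83, CD24Neg minus CD24Mid, or 3.55-fold lower, with quartiles of -2.28 and -1.29. All tested genes had a median of -0.02, with quartiles of -0.79 and 0.71. The members ran from -2.85 for Gar1 to -0.40 for Rrp1, a wide range within 1 direction. More than 2-fold lower were 48 members, against 19.9% of all tested genes, and more than 4-fold lower were 23, against 8.81%.

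In each of the 56 members the 4 CD24Neg values lay below the 4 CD24Mid values. A separation without overlap was seen in 63.8% of all tested genes, and in 32.1% with CD24Neg lower. Summed over the members, the values made up 0.140%, 0.141%, 0.124% and 0.164% of all values outside mitochondrially encoded genes in CD24Neg, against 0.558%, 0.642%, 0.662% and 0.648% in CD24Mid. No library of either fraction came near the other. In these bulk samples fewer cells of a type and less RNA per cell cannot be told apart.

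**Figure D1:**
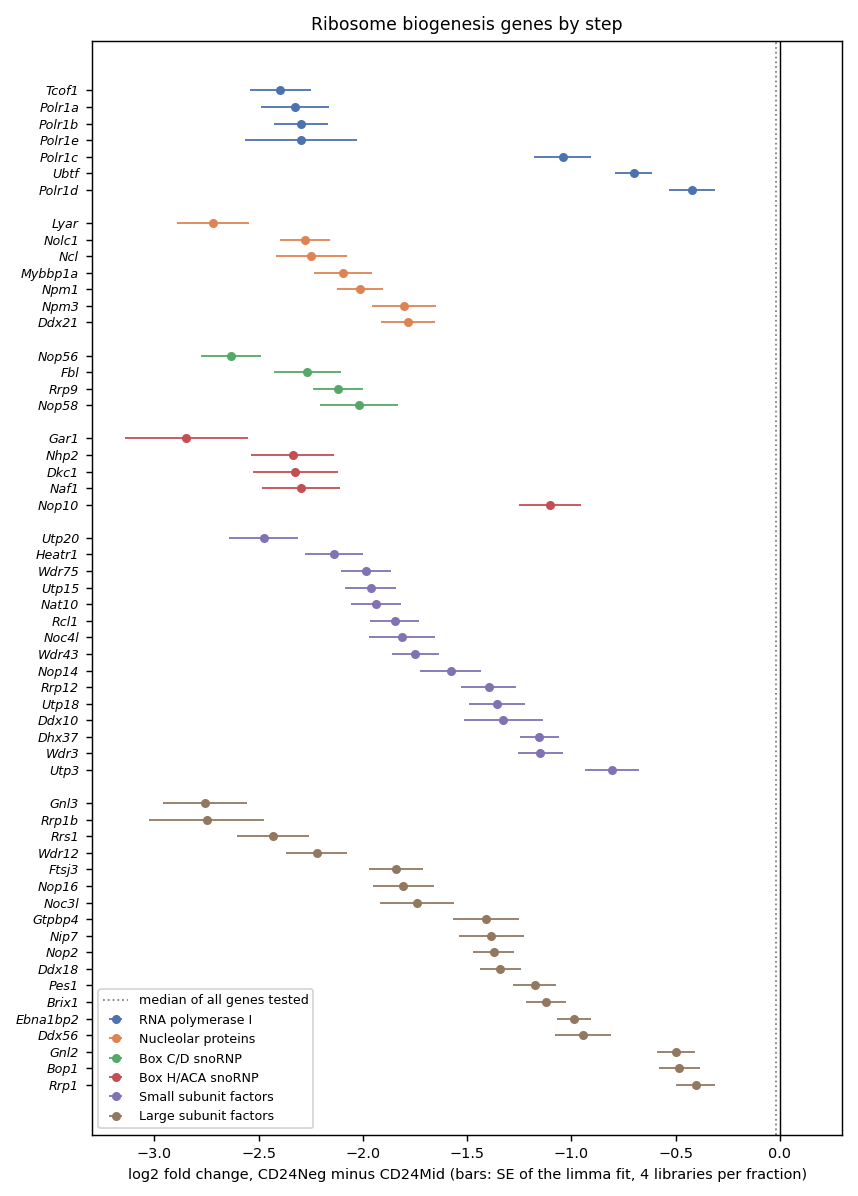
Log2 fold change of each of the 56 members, CD24Neg minus CD24Mid, grouped by step (horizontal axis; bars are the SE of the limma fit, 4 libraries per fraction); the dotted line is the median of all tested genes. Every member lies below 0, from -2.85 for Gar1 to -0.40 for Rrp1. The RNA polymerase I group runs from -2.40 to -0.42 and the large subunit group from -2.76 to -0.40.

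The libraries also differed in cell type markers and depth. The 8 crypt and proliferation markers made up 0.0170% to 0.0538% of nuclear values in CD24Neg and 0.516% to 0.758% in CD24Mid, and all 8 were lower in CD24Neg. The 9 enterocyte markers made up 2.86% to 4.69% in CD24Neg and 0.187% to 0.278% in CD24Mid, and all 9 were higher. Of 6 goblet markers 5 were higher (1.17% to 3.37% against 0.483% to 0.699%), and of 6 enteroendocrine markers 5 were lower (0.00567% to 0.00794% against 0.0309% to 0.0733%). Of 6 Paneth markers and of 4 tested tuft markers 1 was lower and 1 higher in each list. Paneth markers made up 0.00790% to 0.0301% in CD24Neg and 0.0131% to 0.0315% in CD24Mid, and tuft markers 0.000904% to 0.00215% in CD24Neg and 0.000500% to 0.00134% in CD24Mid. Of 6 plasma cell markers 5 were lower in CD24Neg, at 0.00222% to 0.00516% against 0.0543% to 0.140%, and of 8 lymphocyte markers 7 were higher, at 0.00322% to 0.0545% against 0.00110% to 0.00292%. The highest lymphocyte shares were in CD24Neg libraries 2 and 8, and without these libraries the same 56 members were lower. Of 7 stromal markers 2 could be tested and 1 was lower (0.000225% to 0.00111% against 0.00122% to 0.00175%); 1 of the 7 was at 0 in all CD24Mid libraries, and no other listed marker was at 0 throughout a fraction. Steps between low values gave an estimated depth outside mitochondrially encoded genes of 8.07 to 14.7 M reads in CD24Neg and 15.9 to 18.01 M in CD24Mid, and mitochondrially encoded genes took 28.3% to 37.4% of values in CD24Neg and 8.03% to 9.10% in CD24Mid. The part of these differences in the results on ribosome biogenesis was not tested.

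The 7 genes of RNA polymerase I transcription were lower in CD24Neg by a median of 4.91-fold (log2 fold change -2.30), but they split into a strongly and a weakly changed set. Polr1a (ENSMUSG00000049553), the largest catalytic subunit, had values of 140.2, 209.8, 147 and 219 in CD24Neg, against 779, 904, 917 and 929 in CD24Mid. All CD24Neg libraries were far below the lowest CD24Mid library, number 1. The means were 179 ± 41.1 in CD24Neg and 882 ± 69.7 in CD24Mid (SD, n = 4 each), and the log2 fold change was -2.33 (SE 0.16, limma adjusted p = 1.2e-06), or 5.01-fold lower. Polr1b (ENSMUSG00000027395), which forms the active site with Polr1a, had 166, 207, 139.8 and 184 in CD24Neg and 849.9, 900.4, 872 and 778 in CD24Mid. It was 4.92-fold lower (log2 fold change -2.30, SE 0.13, adjusted p = 4.21e-07), much the same size as Polr1a. Polr1e (ENSMUSG00000028318), a subunit known to help the polymerase at initiation and elongation, had 65.6, 28.03, 31.6 and 28.5 in CD24Neg, against 180.4, 189.5, 171 and 173 in CD24Mid. Library 2 held more than the other CD24Neg libraries, and this was the member with the fewest reads, an estimated 16.7 in its lowest library. Its log2 fold change was -2.30 (SE 0.27, adjusted p = 3.36e-05).

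Tcof1 (ENSMUSG00000024613) encodes treacle, a nucleolar phosphoprotein that supports RNA polymerase I transcription. It had 238, 267, 165 and 217 in CD24Neg, against 1035, 1255, 1163 and 1162 in CD24Mid, and was the most changed gene of this step (5.26-fold lower, log2 fold change -2.40, SE 0.15, adjusted p = 6.3e-07). Its groups were separated by a gap several times the spread within either fraction.

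The other RNA polymerase I genes changed less. Polr1c and Polr1d encode subunits that RNA polymerase I shares with RNA polymerase III. Polr1c (ENSMUSG00000067148) had 299, 322, 267 and 269 in CD24Neg and 635, 734, 530.1 and 505 in CD24Mid (2.06-fold lower, log2 fold change -1.04, SE 0.14, adjusted p = 7.6e-05). Polr1d (ENSMUSG00000029642) had 1203, 1026, 978 and 1001 in CD24Neg, against 1523, 1558, 1275 and 1279 in CD24Mid. Its highest CD24Neg library, number 2, came close to its lowest CD24Mid library, number 5, without overlap. The log2 fold change was -0.42 (SE 0.11, adjusted p = 0.00636), or 1.34-fold lower. Ubtf (ENSMUSG00000020923), the upstream binding factor that keeps ribosomal DNA in an open state, had 1249, 1246, 1393 and 1289 in CD24Neg, against 2026, 2293, 2153 and 1950.1 in CD24Mid. The CD24Neg libraries were close to each other, and the gene was 1.63-fold lower (log2 fold change -0.70, SE 0.09, adjusted p = 6.43e-05). Tested against a fold change of 1.5, neither Polr1d (adjusted p = 1) nor Ubtf (adjusted p = 0.247) was called.

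**Figure D2:**
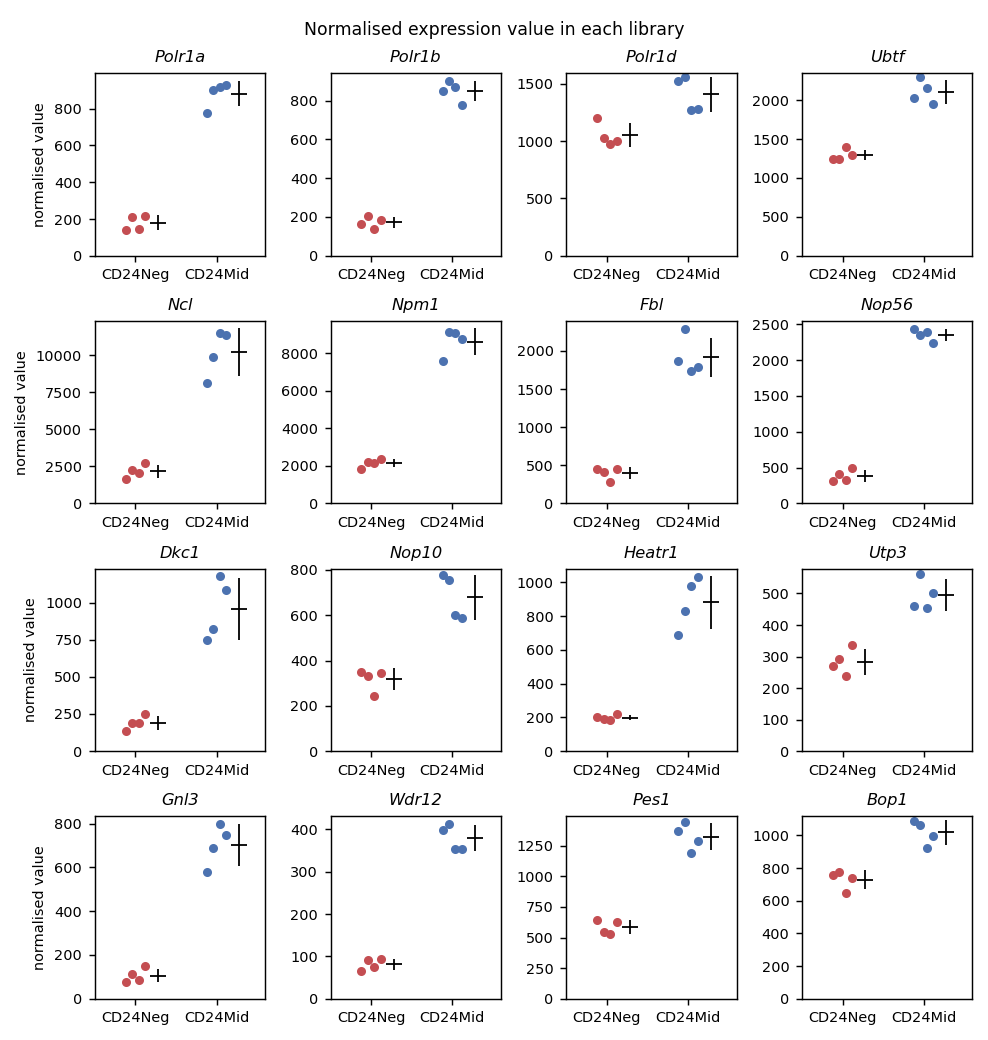
Normalised value (vertical axis, from 0) of 16 members in each of the 4 CD24Neg and 4 CD24Mid libraries (points, in order of title number), with the mean and SD beside them. Polr1a, Nop56 and Gnl3 show wide gaps between the fractions, and Polr1d and Bop1 show narrow ones without overlap.

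Because all subunits of a complex were measured in the same library, the ratio of their values does not depend on how libraries were scaled. Ratios were compared for 22 pairs of subunits in 4 complexes with exact two-sided permutation tests over the 4 and 4 libraries, for which the smallest possible p is 0.0286. For 14 of the 22 pairs the libraries gave this smallest p (0.0449 after Benjamini-Hochberg adjustment over the 22 pairs). Pairs of a complex share genes and are not independent. How often ratios of other gene pairs separate was not computed, so the 14 of 22 has no background share. Among single tested genes, 63.8% separated without overlap. The adjusted p of 0.0449 depends on how many of the chosen pairs reach the smallest p. The 4 complexes were chosen after the data were seen, so the adjusted p describes these pairs and is not independent evidence. The permutation tests treat the 8 libraries as unpaired. At the smallest p the fractions do not overlap, so each of the 14 ratios is lower in CD24Neg under any pairing of libraries. The gene with the larger decrease was written first in each pair, so the direction was set by that order. In RNA polymerase I, 7 of 10 pairs reached the smallest p. The log2 ratio of Polr1a to Polr1d was -2.58 ± 0.42 in CD24Neg and -0.67 ± 0.25 in CD24Mid (SD, n = 4 each; exact permutation), a difference of -1.91. The shared subunits differed among themselves as well, since the ratio of Polr1c to Polr1d differed by -0.62. The ratio of Polr1a to Polr1b was 0.02 ± 0.20 in CD24Neg and 0.05 ± 0.16 in CD24Mid (difference -0.03, exact permutation, adjusted p = 0.959). No difference was detectable in the ratios of Polr1a and Polr1b to Polr1e (differences -0.03 and 0.00, each with an exact permutation adjusted p of 1), where the CD24Neg libraries spread with an SD of 0.85 and 0.68.

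The 7 nucleolar proteins were more even, all of them between -2.72 and -1.78 on the log2 scale, with a median of -2.10 or 4.27-fold. Lyar (ENSMUSG00000067367), a nucleolar zinc finger protein of growing cells, changed most. It had 66.8, 81.3, 97.1 and 115 in CD24Neg, against 498, 609.5, 608 and 624 in CD24Mid (6.57-fold lower, log2 fold change -2.72, SE 0.17, adjusted p = 7.45e-07). CD24Mid library 1 was low among its fraction and still well above the highest CD24Neg library. Nolc1 (ENSMUSG00000015176), which encodes a chaperone of snoRNPs, had 306, 322, 303 and 413 in CD24Neg and 1509, 1604, 1791 and 1579 in CD24Mid, with log2 fold change -2.28 (SE 0.12, adjusted p = 3.18e-07).

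Ncl and Npm1 encode nucleolin and nucleophosmin, the abundant histone and RNA chaperones of the nucleolus. Ncl (ENSMUSG00000026234) had 1648, 2263, 2044 and 2702 in CD24Neg, against 8107, 9861, 11507 and 11361 in CD24Mid (4.75-fold lower, log2 fold change -2.25, SE 0.17, adjusted p = 1.92e-06). Npm1 (ENSMUSG00000057113) had 1854, 2198, 2147 and 2351 in CD24Neg, against 7571, 9118, 9074 and 8778 in CD24Mid (4.04-fold lower, log2 fold change -2.02, SE 0.11, adjusted p = 3.8e-07). In both genes CD24Mid library 1 was the lowest of its fraction and CD24Neg library 2 the lowest of the other. Npm1 has processed pseudogenes, and how the authors' estimate divided reads among such copies is not given, so its level is uncertain. Its relative Npm3 (ENSMUSG00000056209) had 209, 193, 135 and 198 in CD24Neg and 679, 699.8, 598 and 567 in CD24Mid (log2 fold change -1.80, SE 0.15, adjusted p = 3.81e-06).

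Ddx21, an RNA helicase that acts on RNA polymerase I transcripts, was the least changed nucleolar protein. Its values were 531, 666, 644 and 749.8 in CD24Neg, against 1898, 2107, 2398 and 2496 in CD24Mid, a 3.44-fold difference (log2 fold change -1.78, SE 0.13, adjusted p = 1.57e-06). Even here the highest CD24Neg library held less than the lowest CD24Mid library by a wide margin. Mybbp1a, a nucleolar regulator of ribosomal RNA transcription and processing, averaged 808 ± 166 in CD24Neg and 3407 ± 204 in CD24Mid (SD, n = 4 each), with a log2 fold change of -2.10 and an adjusted p of 9.84e-07. It shares 131 exonic bases with Spns2 on the opposite strand. Spns2 averaged 1204 in CD24Neg and 67.4 in CD24Mid, the other direction.

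The 4 proteins of box C/D snoRNPs were each more than 4-fold lower, with a median of 4.58-fold. Fbl (ENSMUSG00000046865) encodes fibrillarin, the methyltransferase of the particle, and had 453, 417, 286 and 455 in CD24Neg, against 1868, 2293, 1733 and 1784 in CD24Mid (4.81-fold lower, log2 fold change -2.27, SE 0.16, adjusted p = 1.31e-06). Nop56 and Nop58 are the paired scaffold proteins. Nop56 (ENSMUSG00000027405) had 315, 415, 322 and 489 in CD24Neg, against 2440.0, 2345, 2393 and 2236 in CD24Mid (6.20-fold lower, log2 fold change -2.63, SE 0.14, adjusted p = 3.56e-07). The CD24Mid libraries were nearly equal for this gene, with an SD of 87.3 around a mean of 2354. Nop58 (ENSMUSG00000026020) had 242, 348, 365 and 406 in CD24Neg, against 1083, 1195, 1665 and 1564 in CD24Mid (4.05-fold lower, log2 fold change -2.02, SE 0.19, adjusted p = 7.15e-06). CD24Mid libraries 5 and 7 were well above libraries 1 and 3 for Nop58. The log2 ratio of Nop56 to Nop58 was 0.18 ± 0.25 in CD24Neg and 0.80 ± 0.33 in CD24Mid (exact permutation, adjusted p = 0.0449). The ratio of Nop56 to Fbl differed by -0.37 (exact permutation, adjusted p = 0.126) and that of Fbl to Nop58 by -0.25 (adjusted p = 0.698), neither past the threshold. Rrp9, which binds the snoRNA that guides early cleavage of the precursor, averaged 95.1 ± 9.38 in CD24Neg and 414 ± 20.7 in CD24Mid (SD, n = 4 each), with a log2 fold change of -2.12 and an adjusted p of 4.21e-07.

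Of the 5 genes of the box H/ACA particle and its assembly, 4 had log2 fold changes from -2.85 for Gar1 to -2.30 for Naf1. Nop10 was set apart at -1.10. Dkc1 (ENSMUSG00000031403) encodes dyskerin, the pseudouridine synthase, which is also part of telomerase. It had 136, 188, 192 and 251 in CD24Neg, against 748, 820.3, 1178 and 1085 in CD24Mid (5.01-fold lower, log2 fold change -2.32, SE 0.20, adjusted p = 4.89e-06). Dkc1 shares 45 exonic bases with Mpp1 on the opposite strand, which averaged 6026 in CD24Neg and 489 in CD24Mid. Gar1 (ENSMUSG00000028010), which joins the particle late in its assembly, had 108, 61.9, 37.2 and 94.4 in CD24Neg, against 487, 591, 474 and 474 in CD24Mid. Its CD24Neg libraries differed among themselves, with library 6 the lowest and library 2 the highest, and all stayed far below CD24Mid (7.19-fold lower, log2 fold change -2.85, SE 0.29, adjusted p = 1.44e-05). The core protein gene Nhp2 (ENSMUSG00000001056) had 203, 237, 131 and 241 in CD24Neg and 1050.3, 1225, 870.4 and 889 in CD24Mid (log2 fold change -2.34, SE 0.20, adjusted p = 4.24e-06). Naf1, an assembly factor that Gar1 replaces in the mature particle, averaged 43.9 ± 6.25 in CD24Neg and 219 ± 42.5 in CD24Mid (SD, n = 4 each), with a log2 fold change of -2.30 and an adjusted p of 3.05e-06.

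Nop10 (ENSMUSG00000027133), the smallest core protein of the particle, had 351, 329.8, 244 and 344 in CD24Neg, against 777, 754, 600.0 and 589 in CD24Mid. It was 2.15-fold lower (log2 fold change -1.10, SE 0.15, adjusted p = 9.62e-05). Relative to Nop10, the other core genes were lower in CD24Neg. The log2 ratio of Dkc1 to Nop10 was -0.74 ± 0.46 in CD24Neg and 0.48 ± 0.52 in CD24Mid, and that of Gar1 to Nop10 was -2.16 ± 0.47 in CD24Neg and -0.42 ± 0.17 in CD24Mid (exact permutation, adjusted p = 0.0449 for each). The ratio of Nhp2 to Nop10 differed by -1.23 with the same adjusted p. The 3 pairs without Nop10 did not pass, with differences of -0.52 for Gar1 to Dkc1, -0.51 for Gar1 to Nhp2 and -0.01 for Nhp2 to Dkc1 (exact permutation, adjusted p = 0.407, 0.157 and 1).

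**Figure D3:**
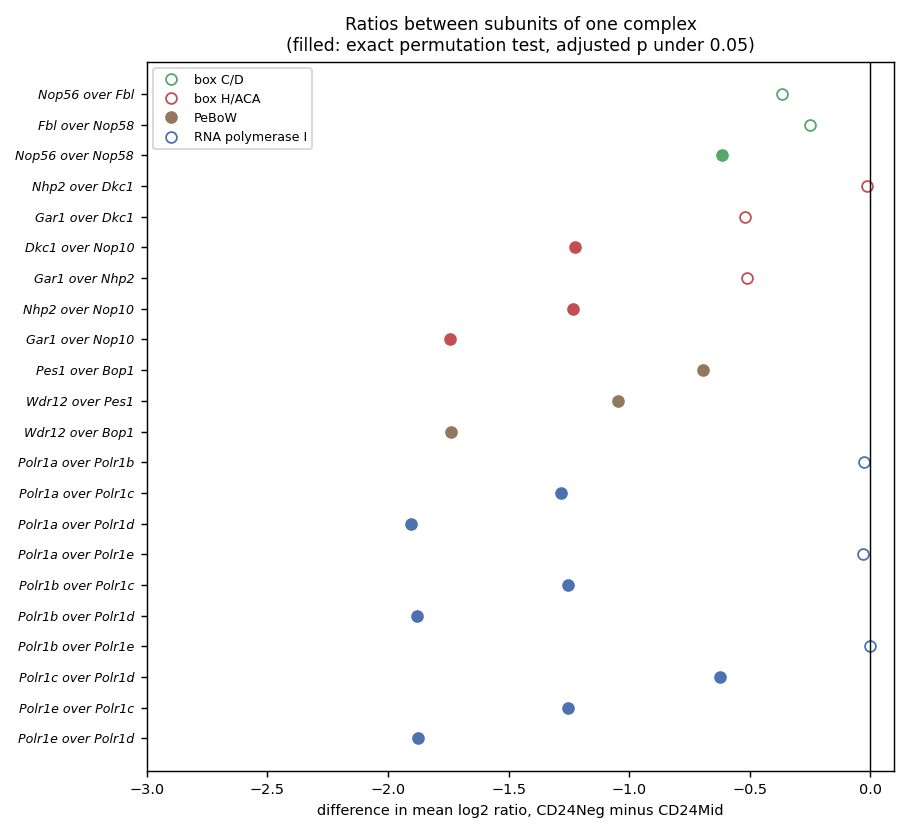
Difference in the mean log2 ratio between subunits of a complex, CD24Neg minus CD24Mid (horizontal axis), for 22 pairs; filled points have an adjusted p under 0.05 in the exact permutation test. Polr1a to Polr1d lies at -1.91, and Polr1a to Polr1b at -0.03.

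The 15 small subunit factors had a median of 3.36-fold lower (log2 fold change -1.75), and 14 were more than 2-fold lower. Utp20 (ENSMUSG00000004356), a very large scaffold protein of the small subunit processome, had 150.1, 152, 133 and 185 in CD24Neg, against 684, 752, 965 and 1091 in CD24Mid (5.56-fold lower, log2 fold change -2.48, SE 0.17, adjusted p = 1.01e-06). Heatr1 (ENSMUSG00000050244), whose yeast counterpart links transcription of the precursor to its processing, had 199.8, 189, 183 and 220.3 in CD24Neg, against 686, 829.7, 981 and 1032 in CD24Mid (4.40-fold lower, log2 fold change -2.14, SE 0.14, adjusted p = 8.72e-07). For both genes the CD24Neg libraries were tight, and CD24Mid libraries 5 and 7 were above libraries 1 and 3. Utp3 (ENSMUSG00000070697), a processome component, changed least. It had 271, 291, 237 and 336 in CD24Neg, against 461, 563, 455 and 501 in CD24Mid (1.75-fold lower, log2 fold change -0.81, SE 0.13, adjusted p = 0.000311), and it was not called against a fold change of 1.5 (adjusted p = 0.140).

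The other 12 small subunit factors filled the range between these. The WD-repeat subunits of the processome part that binds the nascent precursor were among the more changed, with log2 fold changes of -1.99 for Wdr75, -1.96 for Utp15 and -1.75 for Wdr43. Nat10, the cytidine acetyltransferase of ribosomal RNA, was at -1.94, Rcl1, which in yeast takes part in an early cleavage of the precursor, at -1.85, and Noc4l, a partner of Nop14, at -1.81. Nop14 itself was at -1.58. The smaller changes were those of Rrp12, an export factor in yeast (-1.40), of Utp18 (-1.36), of the helicase genes Ddx10 (-1.33) and Dhx37 (-1.15) and of Wdr3 (-1.15). The highest adjusted p among these 12 was 0.000144.

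The 18 large subunit factors had the smallest median of the 6 steps, 2.60-fold lower (log2 fold change -1.38), and the widest range. Gnl3 (ENSMUSG00000042354) encodes nucleostemin, a nucleolar GTP-binding protein known from stem cells and tumour cells. It had 78.7, 113, 85.3 and 148 in CD24Neg, against 578, 688, 798 and 749.5 in CD24Mid (6.76-fold lower, log2 fold change -2.76, SE 0.20, adjusted p = 1.59e-06). Every CD24Neg library held far less than the lowest CD24Mid library. Rrp1b (ENSMUSG00000058392) had 92.3, 76.8, 34.9 and 89.7 in CD24Neg, against 466, 460.4, 468 and 462 in CD24Mid (6.72-fold lower, log2 fold change -2.75, SE 0.28, adjusted p = 1.21e-05). Its CD24Mid libraries were nearly identical, with an SD of 3.68, and CD24Neg library 6 was the lowest of its fraction.

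Its paralog Rrp1 (ENSMUSG00000061032) had 1712, 1593, 1499.8 and 1519 in CD24Neg, against 2267, 2218, 1948 and 1945 in CD24Mid, the smallest difference of any member (1.32-fold lower, log2 fold change -0.40, SE 0.09, adjusted p = 0.00335). Rrp1 and Rrp1b stood at opposite ends of the large subunit group. Gnl2, a GTPase of the same family as Gnl3, likewise changed little, with 440.2, 405, 451 and 489 in CD24Neg, against 636, 609, 644 and 629 in CD24Mid (log2 fold change -0.50, SE 0.09, adjusted p = 0.000706). Rrp1 and Gnl2 were not called against a fold change of 1.5, each with an adjusted p of 1.

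Pes1, Bop1 and Wdr12 form the PeBoW complex, which is needed to process the precursor on its way to the large subunit, and the 3 genes changed by unequal amounts. Wdr12 (ENSMUSG00000026019) had 66.4, 91.3, 75.8 and 93.00 in CD24Neg, against 398, 414, 353 and 354 in CD24Mid (4.66-fold lower, log2 fold change -2.22, SE 0.15, adjusted p = 8.78e-07). Pes1 (ENSMUSG00000020430) had 641, 548, 529 and 629 in CD24Neg, against 1367, 1446, 1191 and 1291 in CD24Mid (2.26-fold lower, log2 fold change -1.17, SE 0.10, adjusted p = 4.92e-06). The fractions were wide apart for Wdr12 and less so for Pes1. Pes1 shares 131 exonic bases with 4930556J24Rik on the opposite strand, which averaged 2.61 in CD24Neg and 1.55 in CD24Mid. Bop1 (ENSMUSG00000022557) had 759, 777, 645 and 736 in CD24Neg, against 1091, 1066, 920.5 and 998 in CD24Mid (1.40-fold lower, log2 fold change -0.48, SE 0.10, adjusted p = 0.00142), and it was not called against a fold change of 1.5 (adjusted p = 1).

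In all 3 PeBoW ratios the libraries of the fractions did not overlap. The log2 ratio of Wdr12 to Bop1 was -3.16 ± 0.23 in CD24Neg and -1.42 ± 0.06 in CD24Mid, and that of Pes1 to Bop1 was -0.31 ± 0.13 in CD24Neg and 0.38 ± 0.05 in CD24Mid (exact permutation, adjusted p = 0.0449 for each). The ratio of Wdr12 to Pes1 differed by -1.05 with the same adjusted p. Within CD24Mid the SD of these ratios was at most 0.06, so the libraries of that fraction held the 3 genes in almost fixed proportion. Bop1 shares 50 exonic bases with Mroh1 on the opposite strand, which averaged 1987 in CD24Neg and 609 in CD24Mid. How reads of both strands were assigned is not given in the sources used here, and the part of this overlap was not tested.

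Of the other large subunit factors, Rrs1, which in yeast helps a small ribosomal RNA particle join the nascent subunit, was the most changed (-2.43, 5.40-fold). The methyltransferase genes Ftsj3 (-1.84) and Nop2 (-1.37), Nop16 (-1.81) and Noc3l (-1.74) were in the middle of the range on the log2 scale. So were the GTPase gene Gtpbp4 (-1.41), Nip7 (-1.38) and the helicase gene Ddx18 (-1.34). Brix1 (-1.12), Ebna1bp2 (-0.99) and the helicase gene Ddx56 (-0.94) changed less. The highest adjusted p among these 11 was 0.000136.

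Overlaps were sought only with genes that have a row in the deposited values. In 12 of the 56 members some exonic bases are shared with such a gene on the opposite strand, at most 131 bases (Mybbp1a and Pes1). None shares exonic bases with such a gene on the same strand. The CD24Mid libraries differed among themselves in the members. Libraries 5 and 7 were above libraries 1 and 3 in 29 members and below in 27, from -0.40 for Polr1c to 0.54 for Ddx10 on the log2 scale. Across the 56 members this difference had a Pearson r of 0.58 and a Spearman rho of 0.58 with the log2 length of the longest coding transcript; the members share the same 4 libraries, so no p is given. The fold change between the fractions had an r of -0.16 and a rho of -0.14 with the same length.

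Outside the members, 155 other genes of ribosome production were listed in 7 lists and 145 had a row and were tested. In CD24Neg 107 of these were lower, 13 higher and 25 not called. Over all tested genes 34.3% were called lower and 34% higher, 68.3% in all, the background for each list below. The median log2 fold change was -0.76, beside -1.83 in the members and -0.02 in all tested genes. The lists and the members do not overlap, and no test was made between them. Means below are given with the SD over 4 libraries per fraction, followed in parentheses by the log2 fold change. Values under another scaling, such as that of libraries to their totals, are log2 fold changes too.

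Of 10 other RNA polymerase I factors 5 were lower, 1 was higher and 4 were not called (median -0.36). The share called in either direction was no higher than the 68.3% over all tested genes. Cd3eap, a further subunit of the polymerase, averaged 19.03 ± 6.91 in CD24Neg and 143 ± 10.7 in CD24Mid (log2 fold change -2.94, adjusted p = 6.49e-06). It shares 106 exonic bases with Ercc1 on the opposite strand, which averaged 124 in CD24Neg and 128 in CD24Mid. Rrn3, the initiation factor that responds to growth signals, averaged 402 ± 21.7 in CD24Neg and 697 ± 31.8 in CD24Mid (-0.79, adjusted p = 2.32e-05). Tested against a fold change of 1.5, Rrn3 was not called (adjusted p = 0.0518). The subunit gene Twistnb averaged 113 ± 15.2 in CD24Neg and 244 ± 40.3 in CD24Mid (-1.09, adjusted p = 0.000186). Taf1c, a subunit of the promoter selectivity factor, was higher at 389 ± 65.6 in CD24Neg and 258 ± 29.7 in CD24Mid (0.59, adjusted p = 0.00394), a call that ended with scaling to totals (0.18). Taf1c shares 480 exonic bases with Dnaaf1 on the opposite strand, which averaged 340.3 in CD24Neg and 28.1 in CD24Mid, the same direction, and the part of this overlap was not tested.

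RNA polymerase III, which makes the smallest ribosomal RNA and transfer RNAs, was mixed. Of 21 genes 10 were lower, 4 higher and 7 not called (median -0.40). The share called in either direction was near the 68.3% over all tested genes. The subunit genes Polr3k (-0.84, adjusted p = 1.89e-05) and Polr3e (-0.89, adjusted p = 3.22e-05) were lower. Maf1, the repressor of RNA polymerase III, was 1.73-fold higher in CD24Neg, at 1416 ± 61.95 in CD24Neg and 819.7 ± 89.95 in CD24Mid (0.79, adjusted p = 5.59e-05). Gtf3c1, the largest subunit of an initiation factor for transfer RNA genes, averaged 2041 ± 102 in CD24Neg and 1287 ± 85.4 in CD24Mid (0.67, adjusted p = 7.91e-05), and the subunit gene Polr3c 1338 ± 109 in CD24Neg and 823 ± 99.6 in CD24Mid (0.70, adjusted p = 0.000253). These 3 stayed higher with scaling to totals (0.39 for Maf1, 0.26 for Gtf3c1, 0.30 for Polr3c) and lost the call against a fold change of 1.5. Brf1, another initiation factor subunit, was at 662 ± 118 in CD24Neg and 488 ± 32.8 in CD24Mid (0.43, adjusted p = 0.0138), a call that ended with scaling to totals (0.02) and without CD24Neg libraries 2 and 8 (adjusted p = 0.0514).

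**Figure D4:**
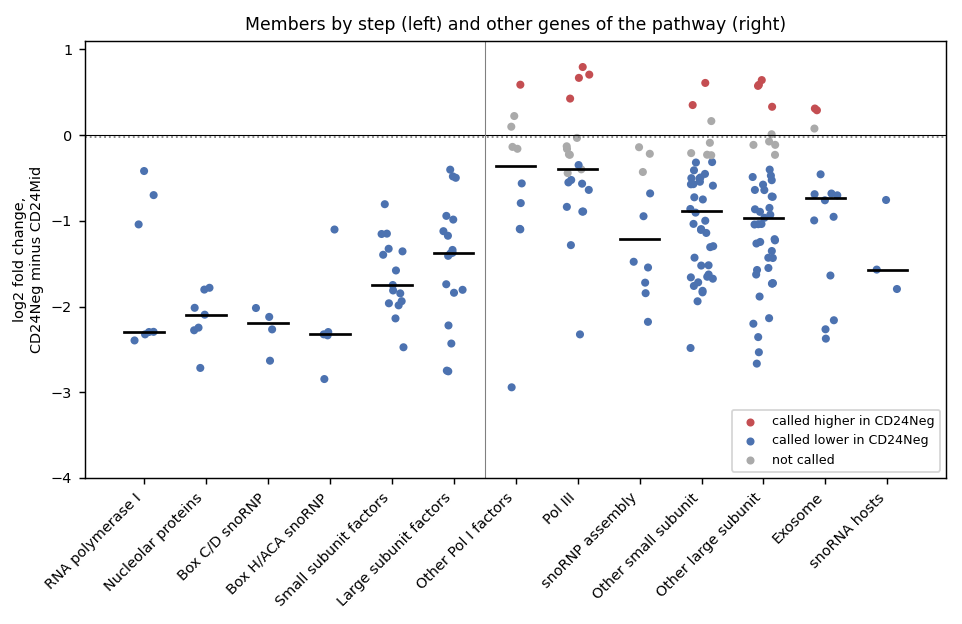
Log2 fold change of each gene, CD24Neg minus CD24Mid (vertical axis), for the members by step on the left and 7 lists of other pathway genes on the right; black bars are medians and colour gives the limma call. Members are all called lower, and the 13 genes called higher lie in the lists on the right.

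Among 10 snoRNP assembly genes 7 were lower, none was higher and 3 were not called (median -1.21). Ruvbl1 and Ruvbl2 encode the ATPases of the chaperone that assembles box C/D particles, and Snu13 a core protein of those particles. Ruvbl1 averaged 121 ± 16.3 in CD24Neg and 547 ± 34.3 in CD24Mid (-2.18, adjusted p = 4.32e-07), Ruvbl2 397 ± 57.7 in CD24Neg and 1304 ± 128 in CD24Mid (-1.72, adjusted p = 1.69e-06) and Snu13 475 ± 54.9 in CD24Neg and 1323 ± 135 in CD24Mid (-1.48, adjusted p = 2.19e-06). Ruvbl2 shares 290 exonic bases with Gys1 on the opposite strand, at 294 in CD24Neg and 253 in CD24Mid.

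Of 42 other small subunit factors 35 were lower, 2 higher and 5 not called (median -0.88). Utp14a (-1.76, adjusted p = 5.78e-07), Aatf (-1.83, adjusted p = 6.59e-07) and Nol6 (-1.52, adjusted p = 1.11e-06) had the lowest adjusted p. Rrp36 was higher at 443 ± 12.3 in CD24Neg and 293 ± 43.3 in CD24Mid (0.61, adjusted p = 0.00107), a call that ended with scaling to totals (0.20). The helicase gene Ddx49 was higher at 938 ± 33.2 in CD24Neg and 741 ± 101 in CD24Mid (0.35, adjusted p = 0.0144), but it turned to -0.05 with scaling to totals, and the call also ended without CD24Mid library 5 (adjusted p = 0.0523), without CD24Neg libraries 2 and 8 (adjusted p = 0.0628) and with quantile normalization (0.13). It shares 713 exonic bases with Homer3 on the opposite strand, at 15.4 in CD24Neg and 23.3 in CD24Mid.

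Of 45 other large subunit factors 36 were lower, 4 higher and 5 not called (median -0.96). Pelp1, part of a complex that acts on the nucleolar large subunit precursor, averaged 253 ± 15.1 in CD24Neg and 841 ± 41.2 in CD24Mid (-1.73, adjusted p = 3.31e-07), Mrto4, which in yeast is exchanged for a stalk protein, 100.3 ± 16.03 in CD24Neg and 513 ± 60.04 in CD24Mid (-2.36, adjusted p = 7.82e-07) and Rsl1d1 455 ± 44.2 in CD24Neg and 1229.6 ± 94.7 in CD24Mid (-1.43, adjusted p = 1.29e-06). Sbds and Efl1 encode the proteins that release the anti-association factor Eif6 from the large subunit. Efl1 averaged 751 ± 26.9 in CD24Neg and 482 ± 28.9 in CD24Mid (0.64, adjusted p = 9.1e-05) and stayed higher with scaling to totals (0.24, adjusted p = 0.0306). Eif6 averaged 2948 ± 282 in CD24Neg and 1977 ± 311 in CD24Mid (0.59, adjusted p = 0.00254) and Sbds 895 ± 119 in CD24Neg and 598 ± 23.2 in CD24Mid (0.57, adjusted p = 0.000897), and both calls ended with scaling to totals (0.18 and 0.17), that of Eif6 also with quantile normalization (0.12). Eif6 shares 138 exonic bases with Gm16098 on the opposite strand, at 10.4 in CD24Neg and 4.59 in CD24Mid. Zfp622, a factor that binds the subunit after export, averaged 796 ± 51.9 in CD24Neg and 634 ± 65.3 in CD24Mid (0.33, adjusted p = 0.0152), but it turned to -0.07 with scaling to totals, and the call ended without CD24Mid library 7 (adjusted p = 0.0536) and with quantile normalization (0.16).

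Of 14 genes of the RNA exosome, the complex that trims ribosomal RNA ends, 11 were lower, 2 higher and 1 not called (median -0.73). The catalytic subunit gene Dis3 averaged 123 ± 9.76 in CD24Neg and 602 ± 115 in CD24Mid (-2.27, adjusted p = 1.09e-06), Exosc2 133 ± 32.7 in CD24Neg and 581 ± 59.7 in CD24Mid (-2.16, adjusted p = 4.79e-06) and Exosc8 93.03 ± 30.05 in CD24Neg and 467 ± 27.6 in CD24Mid (-2.37, adjusted p = 5.19e-06). Exosc8 shares 85 exonic bases with Supt20 on the opposite strand, at 757 in CD24Neg and 819 in CD24Mid, and Exosc2 54 with Gm13427, at 0.684 in CD24Neg and 3.001 in CD24Mid. C1d, a cofactor, was higher at 584 ± 16.99 in CD24Neg and 472 ± 39.9 in CD24Mid (0.31, adjusted p = 0.0132) but turned to -0.09 with scaling to totals. Exosc9, which shares 299 exonic bases with Ccna2 on the opposite strand (347 in CD24Neg and 2609 in CD24Mid), was higher at 575 ± 70.3 in CD24Neg and 468 ± 12.6 in CD24Mid (0.29, adjusted p = 0.0299) but turned to -0.12 with scaling to totals. Its call ended without CD24Neg library 6 (adjusted p = 0.0671) and without any of the 4 CD24Mid libraries (adjusted p from 0.0555 to 0.0816), and with quantile normalization both calls ended (0.21 for Exosc9, 0.22 for C1d).

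Of 9 listed genes that carry snoRNAs in their introns and make no protein, 3 had a row, and all 3 were lower. Gas5 averaged 831 ± 120.0 in CD24Neg and 2865 ± 146 in CD24Mid (-1.80, adjusted p = 7.44e-07), and Snhg3 84.5 ± 17.8 in CD24Neg and 142 ± 16.8 in CD24Mid (-0.76, adjusted p = 0.00443). Tested against a fold change of 1.5, Snhg3 was not called (adjusted p = 0.380). For Snhg12 the log2 fold change was -1.57 (adjusted p = 1.98e-06). Snhg3 shares 310 exonic bases with Gm17300 on the opposite strand, which averaged 78.2 in CD24Neg and 119 in CD24Mid, near its own values and in the same direction, and 159 bases with Snora73a on the same strand (11.8 in CD24Neg and 2.81 in CD24Mid), so its value is uncertain. Snhg12 shares 130 bases with Snora61 on the same strand, which was at or near 0 in both fractions. The 76 cytosolic ribosomal protein genes, the cargo of this pathway, were all called lower in CD24Neg, with a median of -1.13 or 2.18-fold. The fractions did not overlap in 73 of them. Over all tested genes 34.3% were called lower, and 32.1% had no overlap with CD24Neg lower. Many ribosomal protein genes have near-identical processed copies in the genome, so their individual values are uncertain.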

How the data were processed

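RNA from 8 libraries, 4 CD24Neg and 4 CD24Mid, was sequenced. Per the submitters' processing notes reads were aligned with tools that include Bowtie 0.12.8, and the build named is NCBIM37; no annotation release, use of strand or scaling method is stated there. The authors deposited 1 normalised signal value per Ensembl gene and library. The values are already scaled between libraries: the median ratio to the geometric mean was 1.0102 to 1.0104. Low values follow even steps, read as the value of 1 read, which was 1.07 to 1.78 in CD24Neg and 0.583 to 0.695 in CD24Mid. Only 59.6% to 62.6% of low values lay within 0.1 of a step, so whole reads could not be recovered and no count model was used.

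From these values log2(value + 0.5), centred on the median ratio, was fitted with limma 3.58.1 in R 4.3.3 (eBayes with trend and robust variance, 6 residual degrees of freedom), over the 12906 genes that reached 10 in 4 or more libraries. P-values were adjusted by Benjamini-Hochberg over these genes, with a threshold of 0.05. Fold changes on this scale understate low genes. Ratios between subunits were tested in scipy 1.17.1 with exact permutations; the 4 complexes were added to the design after the data were seen. On simulated data for CD24Neg against CD24Mid with 12773 genes, the fit called 23 of 50 genes changed 1.5-fold and 44 of 49 changed 2-fold. It called 49 of 49 changed 4-fold, 47 of 47 changed 8-fold and 4 of 12578 unchanged genes. The simulation used the same dispersion of 0.02 for every gene and left nearly all genes unchanged. In the data 68.3% of tested genes were called, so the simulation does not measure error under so wide a change.

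The members and lists were chosen with earlier results of these data known. Named were 14 fixed members, Bop1, Pes1, Wdr12 and Gnl3, the 2 most and the 1 least changed member of each step, and of each other list up to 3 genes by adjusted p and each gene called higher; values of the remaining members were added after they were seen. A gene that the rule names among the other lists is not reported here. Symbols came from GENCODE M21, which matched 21223 of 23318 identifiers. Promoter windows are those of RefSeq for GRCm38.p6, and transcript lengths and exon overlaps are those of GENCODE M21; no coordinates were carried between builds. The alternatives were quantile normalization, values as deposited, scaling to library totals, no filter, pseudocounts of 0.1 and 1, and no trend. They also included a test against a fold change of 1.5, leaving out each library and leaving out CD24Neg libraries 2 and 8. Adjacent title numbers as a block were added after the data were seen (no label calls them pairs). Library totals left out the 20 most abundant genes and all mitochondrially encoded genes.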

Additional observations from a re-analysis of the deposited data

Results flagged for a closer look

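The highest or lowest library of a fraction stood apart from its other 3 in 7 of 112 groups of 4 values, where chance gives about 5% of groups. Polr1e was at 65.6 in CD24Neg library 2, against 28.03 to 31.6 in the other CD24Neg libraries. Rrp9 was at 81.1 in CD24Neg library 6, against 98.9 to 101 in the others of that fraction. In CD24Mid library 1, Polr1a was at 779, against 904 to 929 in the other CD24Mid libraries, and Lyar at 498, against 608 to 624. In CD24Mid library 3, Gar1 was at 591, against 474 to 487, and Nop16 at 522, against 398 to 415. Ftsj3 was at 1247 in CD24Mid library 5, against 1132 to 1144. In each of these genes the fractions did not overlap with all libraries included.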

How the results depend on the processing

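Over 18 alternatives the 56 members were lower in CD24Neg in each, except that 50 were called against a fold change of 1.5, where Bop1, Gnl2, Polr1d, Rrp1, Ubtf and Utp3 were not. That test also left 2430 genes lower and 2360 higher over all genes, and in the other lists 3 RNA polymerase I, 4 RNA polymerase III, 20 small subunit and 6 exosome genes lower, with 0 higher in these lists and among the large subunit factors. Scaling to totals moved the median of all genes from -0.02 to -0.42 and left 2893 genes higher, 31.2% of calls in place of 49.8%. Medians then were -2.23 for the members, -2.70 for RNA polymerase I, -2.50 for nucleolar proteins, -2.60 for box C/D, -2.73 for box H/ACA, -2.15 for small and -1.78 for large subunit factors; relative to all genes the members were at -1.81 under either scaling. In the other lists 0 RNA polymerase I, 0 small subunit, 1 large subunit and 0 exosome genes were then higher and 17 RNA polymerase III genes lower, and Ddx49 (-0.0545), Zfp622 (-0.0747), Exosc9 (-0.115) and C1d (-0.0949) changed sign. With quantile normalization RNA polymerase I was at -2.06, nucleolar proteins at -2.45 and box C/D at -2.34, with 1 small subunit, 2 large subunit and 0 exosome genes higher. Without CD24Neg libraries 2 and 8 nucleolar proteins were at -2.21 and box C/D at -2.31, with 1 small subunit gene higher. Leaving out each library in turn gave 3882 to 4306 genes lower and 3970 to 4266 higher. Medians then ran from -1.86 to -1.80 for the members, -2.31 to -2.18 for RNA polymerase I, -2.21 to -2.02 for nucleolar proteins, -2.23 to -2.08 for box C/D, -2.43 to -2.22 for box H/ACA, -1.82 to -1.67 for small and -1.41 to -1.34 for large subunit factors, with 1 to 2 small subunit and 1 to 2 exosome genes higher. Ratios did not overlap in 14 to 16 of 22 pairs, and 3 against 4 libraries cannot pass the adjusted threshold. The causes were not tested. The fractions share no replicate number and the labels state no pairs. Over the tested genes, deviations from the fraction means correlated at 0.282 to 0.331 between libraries of adjacent title numbers (1 and 2 to 7 and 8). Between the others they correlated at -0.260 to 0.033. Deviations from a fraction mean cancel over its libraries, so high values for adjacent numbers lower the others, which are not separate evidence. The adjacent values are a hint at pairing from the data and not from the design. A fit with adjacent numbers as a block, added after the data were seen, called 56 members lower (highest adjusted p 0.00195) and, of the 145 other genes, 112 lower and 14 higher with no call lost; among the other RNA polymerase I factors 2 were higher in place of 1 (Baz2a, named after its values were seen, at 0.22, adjusted p = 0.0334 with the block and 0.0791 without, and at -0.18 with scaling to totals). A permutation test over 4 such pairs cannot go below 0.125. Depth limits Polr1e most among the members.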
